A study of Mus musculus with 16 samples.

Results

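The cells described here are the largest unnamed block of a single-cell RNA sequencing study of brown fat in mice, made on its stromal vascular fraction. They are the cells that the coarsest deposited clustering (graph clustering at resolution 0.1) placed in cluster 0 and that the authors left out of their second, named table. Cells of the finer clusters 23, 36 and 46 (resolution 1.8) were set aside, which took out 1412 cells: 1377 of cluster 23, 35 of cluster 46 and 0 of cluster 36. This left 35030 of 109723 cells, or 31.9% of all cells and 41.0% of the 85371 cells without a name. Coarse cluster 0 held 36442 cells, and 0 of them carried a name, so its unnamed cells are all of its cells outside clusters 23 and 46.

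The mice were of the C57BL6J strain and were grouped by housing, with 4 libraries per condition. Thermoneutral mice were kept at 30 °C and room-temperature mice at 22 °C, each for 1 week as far as the labels and the design text give a length. The cold mice were kept at 5 °C for 2 days or for 7 days. No genotype, transgene or drug is named for any group, and all groups went through the same digestion, removal of the floating fat cells, lysis of red blood cells and removal of dead cells. The sources used here give no age, no sex and no number of animals behind a library, so p-values measure the spread between these libraries, which may be technical.

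The stromal vascular fraction is what remains of fat tissue once the lipid-filled fat cells have been floated off. It holds the endothelial cells and pericytes of the capillaries, smooth muscle of larger vessels, fibroblast-like progenitors that can form new fat cells, Schwann cells of the sympathetic nerves, and resident immune cells. Cold activates those nerves, and in brown fat the days after a move to the cold are known as a time of cell division and of new vessel and fat cell formation. A cluster in such data is a group of cells with like transcriptomes, and a finer resolution of the same graph divides coarse clusters into smaller ones. Gene values were not analysed here, so the identity of these cells, and of the tissue, could not be checked against marker genes, and the clusters are called by number.

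Libraries held 1473 to 10005 cells in all. Replicate 1 of 2-day cold stood apart: its cells outside the set described here had a median of 11087 UMIs (distinct RNA molecules counted) and 32.1% mitochondrial UMIs in the median cell, where the other 15 libraries had 2897 to 9619 UMIs and 2.28% to 6.39%, and it held 0 named cells. The unnamed cells of coarse cluster 0 in the same library had a median of 1946.5 UMIs and 4.91% mitochondrial UMIs. Of 34875 distinct barcodes among these cells, 155 occurred in more than 1 library, and no pair of libraries shared more than 8. No pair of libraries of a condition agreed within sampling noise, with a lowest chi-square per degree of freedom of 6.40 over finer clusters.

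The 35030 cells fell into 17 finer clusters, of which 9 averaged 10 or more cells a library. Cluster 0 was the largest with 8234 cells, followed by cluster 1 with 7114, cluster 2 with 6643, cluster 5 with 5722 and cluster 8 with 4834. Together these 5 clusters held 32547 cells, or 92.9% of the set. Cluster 21 held 1669 cells, cluster 44 held 381, cluster 49 held 210 and cluster 53 held 184. The other 8 clusters contributed 39 stray cells, 24 of them from cluster 29. Of the 9 clusters, 8 lay wholly in the set, while cluster 49 had 285 cells in all, of which 74 belonged to coarse cluster 1 and 1 to coarse cluster 2.

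The coarser deposited levels show how these clusters relate. At resolution 0.4 clusters 0, 1, 8 and 44 lay together, with 99.4%, 99.8%, 99.98% and 100% of their cells in one parent. Clusters 2 and 21 shared a second parent with 94.99% and 94.3% of their cells. Cluster 5 was divided between these parents, with 57.7% of its cells beside cluster 2 and 42.3% beside cluster 0. Clusters 49 and 53 each went elsewhere, cluster 49 with 98.6% and cluster 53 with 94.6% of its cells in a parent that none of the other 8 clusters had as its main one. Clusters 1, 8 and 44 were still in one parent at resolution 1, with 98.7%, 96.9% and 92.7% of their cells. At resolution 1.2 cluster 1 had another main parent, with 83.4% of its cells, while 97.8% of cluster 8 and 53.5% of cluster 44 stayed together.

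Depth was low in these cells and differed little between most of the clusters. The median UMI count was 2039 in cluster 1, 2066 in cluster 0, 2118 in cluster 49, 2255 in cluster 21, 2313 in cluster 44, 2314 in cluster 53, 2322 in cluster 2 and 2616 in cluster 8. These medians pool cells over libraries of unlike depth. Of cluster 8, 89.5% came from replicates 1 and 2, the deeper libraries on average, and of cluster 1 16.9%. Cluster 5 was the deepest, with a median of 3382 UMIs and 1360 detected genes, against 901.5 genes in cluster 1. Among the 6 clusters compared library by library, cluster 5 had the highest median in 16 of 16 libraries, at 1.13 to 1.79 times the median of the other 5 (median ratio 1.29). Cluster 0 had the lowest in 9 libraries, cluster 1 in 4 and cluster 21 in 3.

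The mitochondrial share, the part of a cell's UMIs that comes from the mitochondrial genome and a usual sign of cell stress or damage, was 3.20% to 3.93% in the median cell of 8 of the 9 clusters. Cluster 53 was the exception at 20.1%, and 51.1% of its 184 cells were at 20% or above. In the other 8 clusters at most 0.0607% of cells reached that level. Of the 184 cells, 41 came from room-temperature replicate 4, and 2 of 16 libraries held at least 20 cells of the cluster. Cell damage was not tested in any other way.

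Within every library the unnamed cells of coarse cluster 0 had fewer UMIs than the rest of the library's cells. Their median ran from 1592 UMIs in room-temperature replicate 3 to 4215 in 7-day cold replicate 2, against 2897 to 11087 in the other cells. This is a description, because the clusters were built from the same counts. Per condition the mean of the library medians was 2664 UMIs ± 745 (SD, n = 4) at thermoneutrality, 2579 ± 826 (n = 4) at room temperature, 2078 ± 299 (n = 4) after 2 days of cold and 3044 ± 1040 (n = 4) after 7 days. Replicates 1 and 2 together had a mean library median of 3090 ± 811 (SD, n = 8) and replicates 3 and 4 of 2092 ± 277 (n = 8). For UMIs, genes and mitochondrial share, the lowest exact permutation p (two-sided) between any conditions was 0.143.

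The study asked how the cell composition of brown fat changes with cold, and the first comparison is of the share these cells take of a library. At thermoneutrality they were 23.1%, 33.8%, 22.7% and 31.3% of the cells in replicates 1 to 4. At room temperature they were 18.8%, 22.4%, 47.1% and 39.7%. After 2 days at 5 °C they were 8.62%, 36.8%, 39.8% and 26.4%, and after 7 days 47.3%, 36.2%, 50.3% and 29.8%. The ranges of all 4 conditions overlapped, and 3 of the 4 libraries of 7-day cold lay above every thermoneutral library. The lowest of the 16 values, 8.62% (95% Wilson interval 8.08 to 9.19), came from the library that stood apart.

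**Figure D1:**
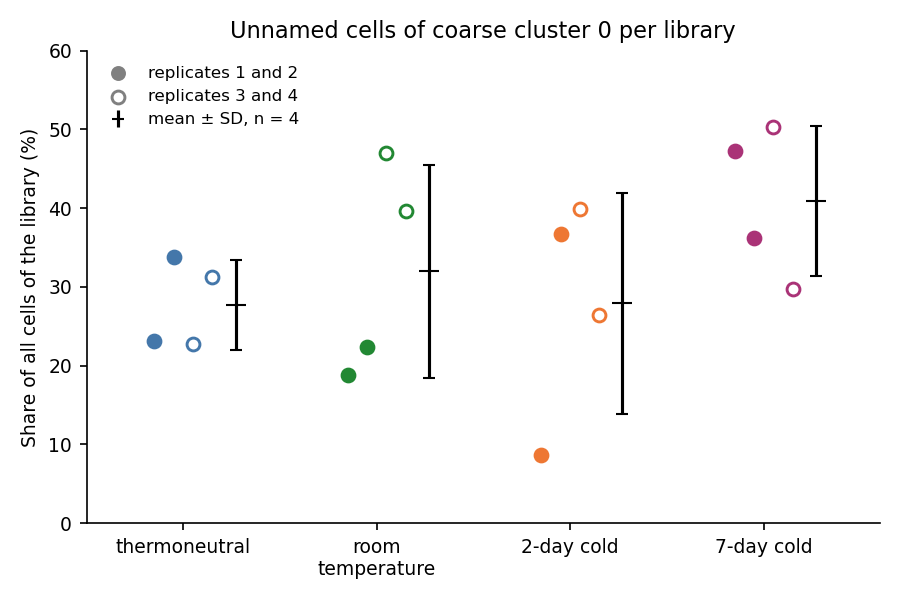
Share of each library's cells (y axis, percent) that were unnamed cells of coarse cluster 0, by housing condition (x axis). Each point is 1 library, filled for replicates 1 and 2 and open for replicates 3 and 4, with the mean and SD of 4 libraries beside it; the 7-day cold libraries sit between 29.8% and 50.3% and overlap those of every other condition.

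The mean share was 27.7% ± 5.66 (SD, n = 4) at thermoneutrality, 32.0% ± 13.6 (n = 4) at room temperature, 27.9% ± 14.1 (n = 4) after 2 days and 40.9% ± 9.57 (n = 4) after 7 days of cold. The largest difference, 13.2 percentage points between 7-day cold and thermoneutrality, had an exact permutation p of 0.0857 (two-sided, 70 assignments) and an adjusted p of 0.514 over 6 pairs. Of the 6 pairs, 0 had an exact p below 0.05, and the smallest p that 4 against 4 libraries allow is 0.0286. The 7-day difference was 13.3 points for replicates 1 and 2 and 13.1 for replicates 3 and 4. Room temperature against thermoneutrality had no single direction: the difference was -7.82 points in replicates 1 and 2 and 16.4 in replicates 3 and 4. A share cannot tell more of these cells from fewer of the others. Among cells of 1500 to 3000 UMIs the 7-day difference was 0.176 points.

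The finer clusters were then compared as shares of all cells, each on the log2 odds scale with limma over 66 units. A unit is the part of a finer cluster that lies in 1 coarse cluster and is named, or not. In room temperature against thermoneutrality 0 of the 9 clusters passed an adjusted p of 0.05, where 0% of all units did. In 2-day cold against thermoneutrality it was 0 of 9, where 4.55% of all units passed, and in 7-day cold against thermoneutrality 0 of 9, where 0% did. Against room temperature, 2-day cold gave 0 of 9 beside 4.55% of all units, and 7-day cold 0 of 9 beside 0%. In 7-day against 2-day cold it was 0 of 9, where 3.03% of all units passed. At an unadjusted p below 0.05 the count was 0 of 9 in each contrast but the last, where it was 2, and edgeR called 0 of 9 in each of the 6 contrasts. All these counts are from fits without a term for replicate number.

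In 7-day cold against thermoneutrality the estimate was above 0 for 7 of the 9 clusters, with a median log2 odds ratio of 0.91 beside 0.23 over all 66 units. It was below 0 for 29 of the 57 other units. In 2-day cold it was below 0 for 6 of the 9, with a median of -0.43 beside -0.11 over all units, and for 28 of the 57 others. The 9 clusters are parts of the same total share in the same libraries, so their signs are not separate results. Both comparisons use the same 4 thermoneutral libraries. The 2-day group includes the library that stood apart, replicate 1, where the set was 8.62% of cells. Within replicates 3 and 4 alone, the 2-day log2 odds ratio was above 0 in clusters 5 (0.35) and 44 (0.52). There it stayed below 0 in clusters 2 (-0.15), 8 (-2.15), 21 (-0.047) and 53 (-1.56). In data simulated for 7-day cold against thermoneutrality with the spread of these libraries, a log2 change of 4 was recovered in 32.5% of units. That value rests on a few changed units in each of 10 draws, picked at random from all 66, sparse ones among them. The spread used already held counting error, and the drawing of cell numbers added it again. It therefore does not give what was detectable in a single cluster. Standard errors of the 9 clusters in this contrast ran from 0.65 in cluster 21 to 1.76 in cluster 8.

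**Figure D2:**
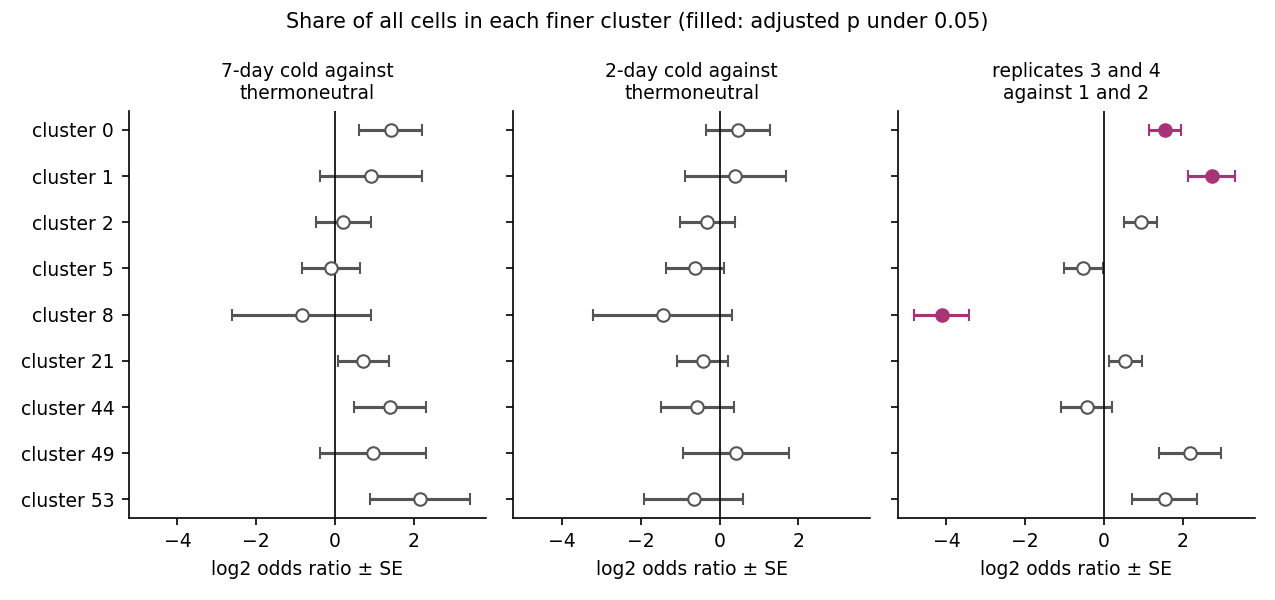
Log2 odds ratio ± standard error (x axis) of the share of all cells in each of the 9 finer clusters (y axis) for 7-day cold and 2-day cold against thermoneutral housing and for replicates 3 and 4 against 1 and 2. Filled points have an adjusted p under 0.05: 0 in both housing panels and 3, clusters 0, 1 and 8, in the panel by replicate number.

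Cluster 0, the most numerous, was 3.06%, 3.21%, 5.72% and 6.41% of all cells in the 4 thermoneutral libraries. In 7-day cold it was 9.67%, 6.08%, 15.6% and 14.5%. The groups overlapped only through 7-day replicate 2, which lay below thermoneutral replicate 4. The difference in log2 odds was 1.41 ± 0.81 (SE, limma adjusted p 0.593), and it was 1.36 for replicates 1 and 2 alone and 1.46 for replicates 3 and 4. Its error is from the fit without a term for replicate number, so the split by replicate number given below counts as spread in it. Room-temperature libraries held 1.62% and 3.12% in replicates 1 and 2 and 11.7% and 13.2% in replicates 3 and 4, and 2-day cold libraries held 2.14%, 6.05%, 11.9% and 7.66%.

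Cluster 53, the cluster of high mitochondrial share, had the largest estimate in 7-day cold against thermoneutrality, a log2 odds ratio of 2.15 ± 1.26 (SE; limma adjusted p 0.593). It made up 0.0600%, 0%, 0.09995% and 0.1502% of the thermoneutral libraries and 0.258%, 0.258%, 0.128% and 1.22% of the 7-day libraries. In 2-day cold it was 0.160%, 0.0109%, 0.0103% and 0.120%, and at room temperature 0%, 0.0715%, 0.260% and 1.72%. A share of 0 in thermoneutral replicate 2 and room-temperature replicate 1 allows up to 0.175% and 0.106% at a limit of 3 cells, which covers counting error only. Replicate 4 was the highest library of both room temperature and 7-day cold, and these 2 libraries also had the highest median mitochondrial share over the whole set, 6.23% and 5.30%. The 2-day difference from thermoneutrality was -0.65 ± 1.26 (SE; limma adjusted p 0.809). The difference between 7-day and 2-day cold was 2.80 ± 1.26, with an unadjusted p of 0.0406 and a limma adjusted p of 0.287.

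Cluster 44 was the other cluster with an unadjusted p below 0.05 between 7-day and 2-day cold. It held 0.802%, 0.517%, 0.653% and 0.136% of cells after 7 days and 0.0400%, 0.295%, 0.0821% and 0.180% after 2 days. The groups overlapped only through 7-day replicate 4. The difference was 1.95 ± 0.92 (SE; unadjusted p 0.0494, limma adjusted p 0.287), and 1.39 ± 0.92 (limma adjusted p 0.593) against thermoneutrality, where the values were 0.490%, 0.233%, 0.0300% and 0.217%. Only 6 of the 16 libraries held at least 20 cells of this cluster.

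Cluster 5, the deepest cluster, was 4.81%, 14.2%, 3.69% and 4.72% of the thermoneutral libraries and 1.38%, 6.20%, 7.15% and 3.85% of the 2-day libraries. The difference was -0.62 ± 0.73 (SE; limma adjusted p 0.714), and it was -1.59 for replicates 1 and 2 alone and 0.35 for replicates 3 and 4. Its lowest share was in the library that stood apart and its highest in thermoneutral replicate 2, whose cells of this set also had the highest median UMI count at thermoneutrality, 3777. In 7-day cold the cluster was 9.97%, 9.27%, 3.13% and 3.12% of cells, and at room temperature 7.18%, 4.86%, 5.17% and 5.29%.

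Clusters 2 and 21 shared a parent at resolution 0.4. Cluster 2 was 5.54% ± 1.90 (SD, n = 4) of cells at thermoneutrality, 6.48% ± 3.50 at room temperature, 5.10% ± 3.08 after 2 days and 6.32% ± 2.16 after 7 days. Cluster 21 was 1.35% ± 0.348, 1.54% ± 0.847, 1.12% ± 0.550 and 2.21% ± 0.566 in the same order (SD, n = 4 each). As a part of the unnamed cells of coarse cluster 0, cluster 21 had the smallest SD relative to its mean of the 9, at 3.86% to 5.60% in all 16 libraries. It took 5.24% to 5.57% of them in 7-day cold and 3.86% to 4.29% in 2-day cold. Cluster 2 took 12.1% to 32.3%, with the highest value in thermoneutral replicate 3.

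Cluster 49 was scarce, at 0% to 0.875% of cells, and 75 of its 210 cells came from 7-day cold replicate 3. Its log2 odds ratio for 7-day cold against thermoneutrality was 0.96 ± 1.34 (SE; limma adjusted p 0.744). In 4 of 16 libraries it had 0 cells.

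The make-up of the set differed by replicate number. The labels number the replicates 1 to 4 in each condition, with sample numbers 1 to 8 for replicates 1 and 2 and 9 to 16 for replicates 3 and 4, and do not say what the numbers stand for. Cluster 8 was 0.0679% to 1.86% of all cells in the 8 libraries of replicates 3 and 4. In those of replicates 1 and 2 it was 1.58% in the library that stood apart and 5.56% to 14.5% in the other 7. Counted as a part of the unnamed cells of coarse cluster 0, cluster 8 was 18.3% to 39.5% in replicates 1 and 2 and 0.211% to 4.96% in replicates 3 and 4, with no overlap in any condition.

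**Figure D3:**
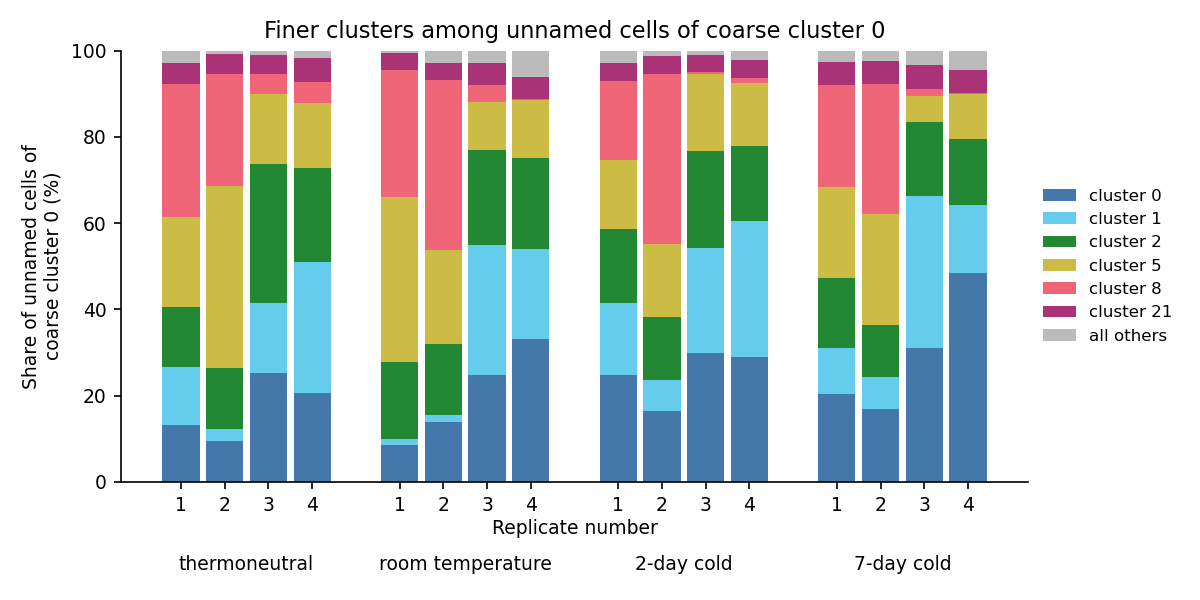
Make-up of the unnamed cells of coarse cluster 0 by finer cluster (y axis, percent, bars sum to 100) in each of 16 libraries (x axis, replicate number within condition). Cluster 8 takes 18.3% to 39.5% in replicates 1 and 2 and at most 4.96% in replicates 3 and 4, while cluster 21 stays between 3.86% and 5.60% in every library.

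A limma fit with a term beside housing for the pair of replicate numbers (3 and 4 against 1 and 2) was also made. In it 3 of the 9 clusters passed for that term, where 12.1% of all 66 units did. Cluster 8 was lower in replicates 3 and 4, with a log2 odds ratio of -4.12 ± 0.70 (SE; adjusted p 0.00242). Cluster 1 was higher, by 2.73 ± 0.60 (adjusted p 0.00566), and so was cluster 0, by 1.55 ± 0.40 (adjusted p 0.0160). Cluster 49 had an estimate of 2.18 ± 0.79 (adjusted p 0.0995), cluster 53 of 1.54 ± 0.82 (0.336), cluster 2 of 0.93 ± 0.42 (0.210), cluster 21 of 0.54 ± 0.42 (0.588), cluster 44 of -0.44 ± 0.64 (0.760) and cluster 5 of -0.53 ± 0.49 (0.659). Depth moved with the same split, as the mean library medians of 3090 and 2092 UMIs given above show, and its part in the result was not tested.

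Clusters 1 and 8, which shared a parent up to resolution 1, lay in opposite directions along this split. In thermoneutral replicates 1 to 4 cluster 8 was 69.8%, 90.4%, 22.0% and 14.0% of the cells of both clusters. At room temperature it was 95.8%, 96.3%, 11.6% and 1.01%, in 2-day cold 52.5%, 84.6%, 2.29% and 4.15%, and in 7-day cold 69.1%, 80.0%, 4.04% and 1.43%. Each of the 8 libraries of replicates 1 and 2 lay above each of the 8 of replicates 3 and 4. The sum of both clusters overlapped between these libraries: it was 28.8% to 46.6% of the unnamed cells of coarse cluster 0 in replicates 1 and 2 and 15.9% to 36.7% in replicates 3 and 4. Of the 4834 cells of cluster 8, 1326 came from 2-day cold replicate 2, and of the 7114 of cluster 1, 1519 came from 7-day cold replicate 3.

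**Figure D4:**
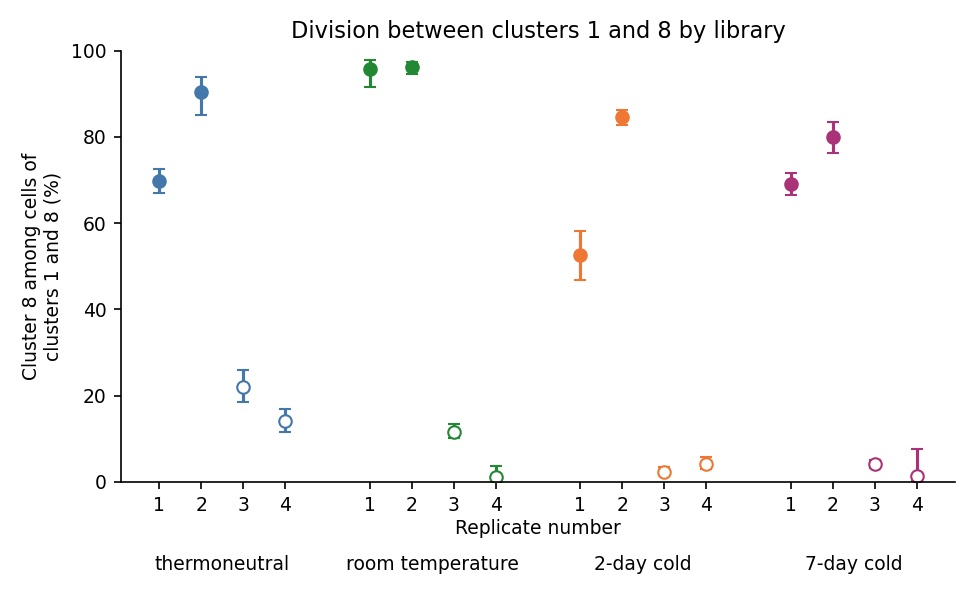
Cells of cluster 8 as a share of the cells of clusters 1 and 8 (y axis, percent, with 95% Wilson intervals for counting error) in each library (x axis, replicate number within condition; filled points are replicates 1 and 2). The 8 filled points lie between 52.5% and 96.3% and the 8 open points between 1.01% and 22.0%.

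Differences by housing in clusters 1 and 8 had wide errors. These errors are from the fit without a term for replicate number, so the split described above counts as spread in them. Cluster 8 differed from thermoneutrality by -1.44 ± 1.76 in 2-day cold (SE; limma adjusted p 0.714) and by -0.85 ± 1.76 in 7-day cold (0.793), with values within replicates 1 and 2 of -0.72 and 0.53 and within replicates 3 and 4 of -2.15 and -2.22. Its shares of all cells were 7.14%, 8.80%, 1.04% and 1.55% at thermoneutrality, 5.56%, 8.84%, 1.86% and 0.0839% at room temperature, 1.58%, 14.5%, 0.226% and 0.360% after 2 days and 11.1%, 10.9%, 0.747% and 0.0679% after 7 days. Cluster 1 differed by 0.40 ± 1.29 in 2-day cold (limma adjusted p 0.891) and by 0.91 ± 1.29 in 7-day cold (0.744). Its shares of all cells were 3.09%, 0.933%, 3.69% and 9.55% at thermoneutrality and 0.246%, 0.343%, 14.2% and 8.26% at room temperature. They were 1.43%, 2.63%, 9.64% and 8.32% after 2 days and 4.98%, 2.73%, 17.7% and 4.68% after 7 days.

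The last comparison is of the deposited cell cycle calls. Each cell carries a score for genes of DNA synthesis (S) and one for genes of the approach to and passage through mitosis (G2M), and the call is the phase with the larger score, or G1 where both are below 0. This rule gave the deposited call in 35030 of 35030 cells. Most of these cells lay close to the border: the median S score was 0.00163, the median G2M score -0.0156, and the larger of the scores was within 0.05 of 0 in 69.3% of cells. In cluster 46, set aside here, the medians were 0.377 and 0.556 and 91.5% of 316 cells had a score over 0.25, which 9 of the 35030 cells reached. The share called S or G2M, 69.0%, therefore counts small positive scores and is not read as a share of dividing cells.

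The share called S or G2M nevertheless differed between the conditions. It was 60.3%, 66.5%, 65.4% and 63.9% at thermoneutrality and 80.6%, 78.2%, 73.3% and 72.2% at room temperature, with no overlap. After 2 days of cold it was 67.9%, 78.2%, 73.2% and 71.6%, again above every thermoneutral library, and after 7 days 62.9%, 60.6%, 63.9% and 59.5%. The 7-day values lay within or below the thermoneutral range and below every room-temperature and 2-day value. Room temperature exceeded thermoneutrality by 12.1 percentage points and 2-day cold exceeded it by 8.71, while the difference of 7-day cold was -14.4 points from room temperature and -11.01 from 2-day cold. For each of these 4 differences the exact permutation test gave its smallest p, 0.0286, which became 0.171 after adjustment over 24 tests. A p at this floor passes the correction only if most of the 24 tests share it. The phase tests alone could not reach that, so the lack of a pass was set by the number of libraries and tests. Replicates 1 and 2 taken alone gave 16.01 points for room temperature and 9.68 for 2-day cold against thermoneutrality, and -17.6 and -11.3 for 7-day cold against room temperature and 2-day cold. Replicates 3 and 4 gave 8.10, 7.74, -11.1 and -10.7, so each direction was the same in both.

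Calls of G2M alone separated 7-day cold from every other condition. They were 14.8%, 13.1%, 17.4% and 17.5% of the cells after 7 days, against 25.4% to 26.7% at thermoneutrality, 23.4% to 31.0% at room temperature and 29.1% to 37.7% after 2 days. Calls of S were 41.9% to 48.1% after 7 days and 34.1% to 40.8% at thermoneutrality, also with no overlap and in the other direction. For G2M alone, the difference of 7-day cold was -10.3 points from thermoneutrality, -12.7 from room temperature and -18.2 from 2-day cold (exact permutation p 0.0286 each, adjusted p 0.171). The limit of the correction given above applied here too. The mean of the library median G2M scores was -0.0366 ± 0.00374 (SD, n = 4 libraries) after 7 days, -0.0186 ± 0.00317 at thermoneutrality, -0.00933 ± 0.00866 at room temperature and -0.00281 ± 0.00735 after 2 days.

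**Figure D5:**
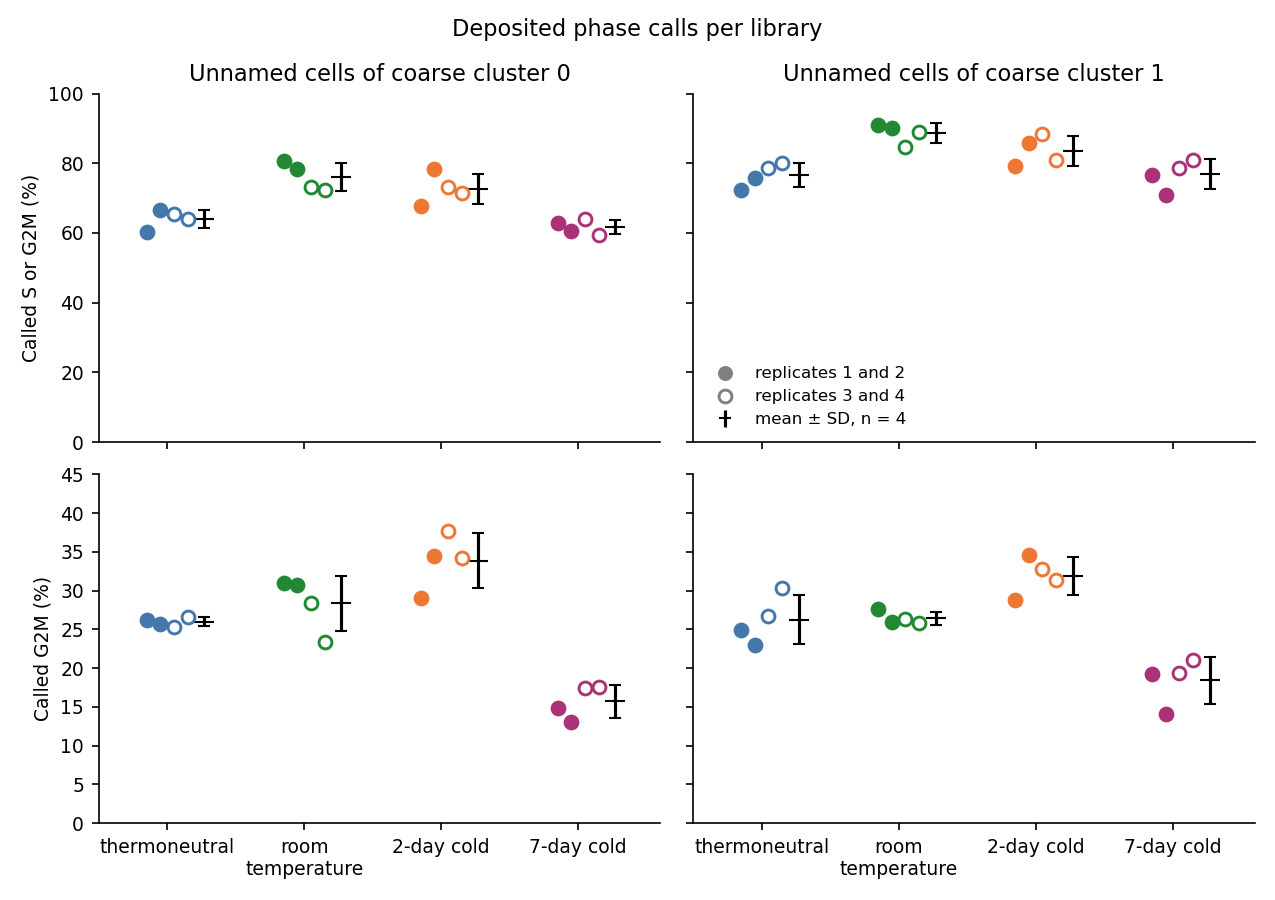
Share of cells called S or G2M (upper row, y axis in percent) and G2M (lower row) per library and housing condition (x axis), for the unnamed cells of coarse cluster 0 (left) and of coarse cluster 1 (right), with mean and SD of 4 libraries. In both columns the G2M share of the 7-day libraries lies below every library of the other conditions. It runs from 13.1% to 17.5% in the left column and from 14.1% to 21.1% in the right column.

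The same comparison was made within the units whose cell number was 20 or more in each of the 16 libraries: clusters 0, 2, 5 and 21 and 1 unit outside the set. In limma, with these shares on the log2 odds scale, 3 of the 4 clusters rose at room temperature against thermoneutrality, where 80% of all 5 units were called. Cluster 0 rose by 0.92 ± 0.19 (SE; adjusted p 0.000472), cluster 5 by 0.93 ± 0.23 (0.00156) and cluster 2 by 0.65 ± 0.18 (0.00262), and cluster 21 had an estimate of 0.39 ± 0.29 (0.195). After 2 days of cold 3 of the 4 rose against thermoneutrality, where 60% of the units were called: cluster 5 by 0.66 ± 0.23 (adjusted p 0.0234), cluster 2 by 0.56 ± 0.18 (0.0234) and cluster 0 by 0.44 ± 0.19 (0.0479). The 2-day calls lay near the threshold: without thermoneutral replicate 1 or 4, or without 2-day replicate 2 or 3, 0 of the 4 clusters passed, and the call of cluster 0 was lost without any one of 15 of the 16 libraries. The estimates stayed above 0 with each library left out, from 0.33 to 0.60 in cluster 0, from 0.45 to 0.66 in cluster 2 and from 0.52 to 0.79 in cluster 5.

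In 7-day cold against thermoneutrality 0 of the 4 clusters passed for S or G2M together, where 0% of the units did, and in 2-day cold against room temperature 0 of 4, where 0% did. In 7-day cold against room temperature 4 of the 4 fell, where 100% of the units were called. Cluster 5 fell by 1.28 ± 0.23 (adjusted p 5.15e-05), cluster 0 by 1.10 ± 0.19 (5.15e-05), cluster 2 by 0.81 ± 0.18 (0.000366) and cluster 21 by 0.87 ± 0.29 (0.00989). Against 2-day cold 3 of the 4 fell, where 60% of the units were called: cluster 5 by 1.01 ± 0.23 (adjusted p 0.00148), cluster 2 by 0.71 ± 0.18 (0.00186) and cluster 0 by 0.62 ± 0.19 (0.00585). The estimate for cluster 21 was -0.50 ± 0.29 (0.127). These 4 clusters make up most of the 5 units, so the percentages over all units are no separate background for them.

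By library, the share called S or G2M in cluster 0 was 58.2%, 65.5%, 65.9% and 66.1% at thermoneutrality and 80.4%, 78.0%, 75.02% and 75.2% at room temperature. It was 63.6%, 74.9%, 73.1% and 70.4% after 2 days and 61.7%, 60.4%, 63.1% and 58.7% after 7 days. In cluster 5 it was 56.8%, 64.8%, 63.4% and 60.8% at thermoneutrality, 79.9%, 78.2%, 69.4% and 73.0% at room temperature, 65.9%, 77.1%, 74.0% and 68.6% after 2 days and 58.1%, 54.2%, 61.9% and 47.8% after 7 days. In both clusters the room-temperature libraries lay above all thermoneutral and all 7-day libraries. In cluster 2 the values were 59.3%, 69.5%, 64.9% and 65.3% at thermoneutrality, 72.9%, 77.99%, 72.9% and 73.5% at room temperature, 69.6%, 77.2%, 73.8% and 71.2% after 2 days and 61.2%, 62.7%, 64.3% and 61.2% after 7 days, with the same separation. Cluster 21 overlapped: it had 65.8%, 76.9%, 71.7% and 62.9% at thermoneutrality, 80.95%, 79.03%, 75.2% and 64% at room temperature, 64.9%, 80.7%, 64.7% and 66.98% after 2 days and 60.4%, 58.2%, 59.6% and 69.6% after 7 days. Its room-temperature replicate 4, with 50 cells, lay below 3 of the 4 thermoneutral libraries and below 7-day replicate 4, with 23 cells.

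Finer clusters outside the set were compared in the same way. In a wider choice of units, those with at least 20 cells in at least 3 libraries of each condition, 6 of the 23 units were of the set: clusters 0, 1, 2, 5, 8 and 21. At room temperature against thermoneutrality 4 of the 6 rose, where 34.8% of the 23 units were called, 4 of them among the 17 outside the set. In 2-day cold 0 of the 6 passed, where 0% did, and in 7-day cold against thermoneutrality 0 of 6, where 4.35% did. In 2-day cold against room temperature it was 0 of 6, where 0% did. In 7-day cold 5 of the 6 fell against room temperature, where 69.6% were called, 11 of the 17 others among them. Against 2-day cold 5 of the 6 fell, where 43.5% were called, 5 of the 17 others among them. Whether the set and the other units differed was not tested. Once each library was centred on its median over the 23 units, 0 of the 6 were called in each of the 6 contrasts, where 0% of all units were, and 0 to 1 of the 6 had an unadjusted p below 0.05. Centring takes out any shift that most of the 23 units share, the 6 of the set among them. These counts therefore concern only differences from the median unit.

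The unnamed cells of coarse cluster 1, the next set by number, gave values of the same order. Their share called S or G2M was 76.7% ± 3.39 (SD, n = 4) at thermoneutrality, 88.7% ± 2.75 at room temperature, 83.6% ± 4.33 after 2 days and 76.8% ± 4.30 after 7 days, and their G2M share 26.2% ± 3.14, 26.4% ± 0.838, 31.9% ± 2.46 and 18.4% ± 3.04. The G2M share of each 7-day library lay below that of every library of the other conditions here too. All cells outside the set, pooled by library, did not show a fall of S and G2M calls together after 7 days. Their share called S or G2M was 43.6% ± 14.02 (SD, n = 4) at thermoneutrality, 48.3% ± 16.4 at room temperature, 47.8% ± 19.7 after 2 days and 51.3% ± 11.8 after 7 days, with overlapping ranges. The 2-day mean includes 20.5% in the library that stood apart. Their G2M share was 16.95% ± 4.07, 15.37% ± 5.51, 16.65% ± 7.06 and 14.55% ± 2.97 in the same order, lowest after 7 days, with overlapping ranges. Pooled values mix finer clusters in differing proportions. Taken singly, 11 of the 17 units outside the set fell in 7-day cold against room temperature and 5 against 2-day cold. The pooled means were not tested against each other. The sources used here do not say how the scores were computed. Median UMI counts of the set were highest after 7 days and lowest after 2 days, a difference that did not pass (exact permutation p 0.171). Among cells of 1500 to 3000 UMIs, the difference of 7-day cold was -12.6 points from room temperature and -10.4 from 2-day cold, and room temperature and 2-day cold were 12.1 and 9.88 points above thermoneutrality (exact permutation p 0.0286 each, adjusted p 0.171, with the same limit of the correction). Depth was not equal within that window, where the mean of the library median UMI counts was 2370.5 at thermoneutrality, 2319 at room temperature, 2028 after 2 days and 2399.6 after 7 days.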

How the data were processed

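Per the labels' protocols, interscapular brown fat was digested and single cells of the stromal vascular fraction were sequenced after Chromium v3 library preparation (3' ends); STAR and Cell Ranger 3.0.1 with mm10 are named in the submitters' processing notes. The deposited files are 2 tables with 1 line per cell and no gene values. They give, per the file headers, the UMI and gene counts of a cell as raw whole numbers, its mitochondrial fraction (shown here as a percent), its S and G2M score, its phase call and its cluster number at several resolutions. The sources used here do not state the authors' cell filters, integration or scoring. A cell counted as named when its barcode is in the second table.

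The library was the replicate, with 439 to 4705 cells of the set in each. Shares were turned into log2 odds after adding 0.5 cells to each side, and limma 3.58.1 (R 4.3.3) was run on 16 libraries with 4 groups in 1 fit and 6 contrasts. Units entered with an average of 10 or more cells a library (66 units), or for phase calls with 20 or more in every library (5 units). Adjustment was by Benjamini-Hochberg over the units of a contrast, two-sided, with a threshold of 0.05. Library values were compared with exact permutation tests (scipy 1.17.1). Every finer cluster averaging 10 or more cells of the set was named, with values in every library for those past the threshold or among the 3 largest estimates in 7-day or 2-day cold against thermoneutral housing. On simulated data for 7-day cold against thermoneutral housing with 66 units, 0%, 5% and 32.5% of log2 changes of 1, 2 and 4 were recovered, and 6.25% of calls were false. There were 10 draws, each with a few changed units per size of change. edgeR 4.0.16 on cell numbers was an alternative. Wilson intervals are at 95% and cover counting error alone. Without gene values, no doublet caller was run and no thinning of UMIs was done. The members and lists were chosen with earlier results of these data known.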

Additional observations from a re-analysis of the deposited data

Results flagged for a closer look

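Of 56 sets of 4 libraries, 9 held 1 library whose gap to the nearest other, divided by the range, exceeded the critical value of Dixon's test for 4 samples. By chance about 1 in 20 sets would do so. Thermoneutral replicate 2 had a median of 3777 UMIs and 1361 genes in these cells, against 2238 to 2383 UMIs and 972.5 to 994 genes in the other 3, and cluster 5 was 14.2% of its cells, against 3.69% to 4.81%. Room-temperature replicate 4 had a median mitochondrial share of 6.23%, against 2.86% to 3.23%, and cluster 53, the cluster of high mitochondrial share, was 1.72% of its cells, against 0% to 0.260%. Cluster 8 was 14.5% of the cells of 2-day cold replicate 2, against 0.226% to 1.58%. In 7-day cold, cluster 1 was 17.7% of replicate 3, against 2.73% to 4.98%, cluster 49 was 0.875% of the same library, against 0% to 0.0952%, and cluster 53 was 1.22% of replicate 4, against 0.128% to 0.258%.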

How the results depend on the processing

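The count of finer clusters whose share passed stayed at 0 in each of the 6 housing contrasts under all 30 alternatives, in which 6 to 17 clusters entered (9 in the comparison reported), the replicate block, edgeR, other scalings, other minimums, depth and quality limits and each library left out among them. Single estimates turned their sign for cluster 44 in 7-day cold against thermoneutrality among cells of 1500 to 3000 UMIs (-0.064) and for clusters 8 and 53 in 2-day cold with edgeR and TMM scaling (0.051 and 0.14). The total share of the set in 2-day cold against thermoneutrality was -0.16 on the log2 scale, -2.18 points among cells of 1500 to 3000 UMIs and -6.67 as a share of unnamed cells, and in 7-day cold against room temperature it was -3.52 points in that window. With each library left out in turn, the total share difference from thermoneutrality ran from -0.754 to 8.65 points at room temperature, from -3.79 to 6.62 in 2-day cold and from 10.1 to 16.9 in 7-day cold; it ran from -8.46 to 2.35 for 2-day cold and from 4.53 to 13.9 for 7-day cold against room temperature, and from 6.57 to 17.0 between the cold groups. It turned negative at room temperature without room-temperature replicate 3, and in 2-day cold without thermoneutral replicate 1 or 3 or replicate 2 or 3 of the 2-day group (-1.35, -1.48, -2.76 and -3.79). Between 2-day cold and room temperature it turned positive without room-temperature replicate 3 (0.944) or 2-day replicate 1 (2.35).

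Calls on S or G2M in 4 clusters moved more. With G2M alone, 0 passed at room temperature against thermoneutrality, 1 in 2-day cold and 4 in 7-day cold; with S alone, 0 passed in 2-day cold, 1 in 7-day cold, 1 in 2-day cold against room temperature and 0 in 7-day cold against room temperature. With at least 10 cells in every library 0 passed in 2-day cold. In the wider set of units, chosen after seeing the data, 0 passed in 2-day cold and 5 in 7-day against 2-day cold. With G2M alone in that set, 0 passed at room temperature, 1 in 2-day cold and 2 in 7-day cold. After centring of each library, 0 passed for S or G2M in all contrasts; for G2M alone 0 passed in each contrast but 7-day against 2-day cold, where 1 did, cluster 1. Leaving out each library gave 3 to 4 at room temperature, 0 to 3 in 2-day cold, 0 in 7-day cold, 0 to 1 between 2-day cold and room temperature (the 1 when 2-day replicate 2 was dropped), 4 in 7-day cold against room temperature and 3 against 2-day cold.

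Of the estimates that passed for S or G2M together, those that turned their sign after centring were cluster 2 at room temperature (-0.18), clusters 0, 2 and 5 in 2-day cold against thermoneutrality (-0.23, -0.12 and -0.016), clusters 2 and 21 in 7-day cold against room temperature (0.17 and 0.11) and clusters 0 and 2 against 2-day cold (0.20 and 0.11). With G2M alone and centring, cluster 0 was 0.28 against room temperature and 0.11 against 2-day cold, and cluster 5 was 0.063 against 2-day cold. With S alone, cluster 0 was -0.37 in 2-day cold against thermoneutrality, cluster 2 was 0.073 in 7-day cold against room temperature, and clusters 0, 2 and 5 were 0.63, 0.54 and 0.053 against 2-day cold. Estimates that had not passed turned after centring for clusters 1 and 21 at room temperature (-0.067 and -0.44), cluster 21 in 2-day and cluster 8 in 7-day cold against thermoneutrality (-0.65 and 0.020), clusters 2 and 8 in 2-day and cluster 1 in 7-day cold against room temperature (0.060, 0.13 and 0.27) and cluster 21 between the cold groups (0.32). Estimates after centring are relative to the median unit of a library, so a shift shared by most units is taken out of them. The cause of the changes listed was not tested.

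Libraries were not paired by replicate number, though 16 of 24 same-numbered pairs correlated above 0.1 (range -0.229 to 0.613). Of 16 libraries, 11 correlated best with their own number. With the replicate block, the counts were 0 of 9 for shares in each contrast and 3, 3, 0, 0, 4 and 3 of 4 for phase calls, as without it. For library values the block allows no exact p below 0.125. Phase calls among cells of 1500 to 3000 UMIs could not be fitted within clusters, because no unit had 20 cells in every library. Depth limits clusters 44, 49 and 53, which held under 20 cells in 10 or more libraries.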
